A study of Arabidopsis lyrata with 12 samples.

Results

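Genome assemblies place most of their sequence on a few long scaffolds and leave the remainder on many short ones, which are commonly rich in repeats that are hard to join. In the files on Arabidopsis lyrata, a wild relative of the model plant Arabidopsis thaliana, every scaffold other than numbers 1 to 8 was taken as small, whatever it carried. The rule gave 622 small scaffolds with 4970 of the 91969 deposited domains and 653 of the 24268 listed genes. They reached 11.3 Mb of the 205.5 Mb of scaffold extent (5.52%). Scaffolds with neither a domain nor a listed gene appear in no list and could not be counted. Extent is the highest coordinate any file gives on a scaffold, and is therefore a lower bound on its length. The domains were 541 of 21676 for H3K4me3, 844 of 19060 for H3K27me3, 1380 of 17702 for H3K27me1 and 2205 of 33531 for 5-methylcytosine (5mC).

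All 12 libraries came from young leaves of the accession MN47, and the labels give no treatment or second genotype. Each of the 3 histone marks had 2 immunoprecipitated libraries, as did methylated DNA (MeDIP), beside 1 chromatin input, 2 MeDIP inputs and 1 mRNA library. For each mark the authors deposited a single list of enriched domains, and from the mRNA library each gene has its mean exon coverage. No value per replicate was at hand, so every comparison below is a description with no test, and the range over the 8 main scaffolds is given as the spread to read it against. Sequencing depth is unknown, and leaf marker genes were not checked because the gene identifiers matched no annotated name.

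Trimethylation of histone H3 at lysine 4 (H3K4me3) is known from the start of transcribed plant genes. Trimethylation at lysine 27 (H3K27me3) is set by Polycomb complexes on genes kept silent, whereas monomethylation of the same residue (H3K27me1) is known from the condensed chromatin of transposons and other repeats. Methylated cytosines in plants are likewise concentrated in repeats, and are also found inside some transcribed genes.

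A difference in scaffold names has to be set out first, because it touches every joint reading of 5mC and another mark. The 5mC list named small scaffolds up to number 695, whereas the H3K4me3, H3K27me3 and H3K27me1 lists each reached number 1117 and the gene list 1089. Of the 607 small scaffolds in the histone and gene lists, 191 had numbers above 695. Of the 653 gene identifiers, 652 hold the number of the scaffold on which the gene is listed, and 80.8% of the H3K4me3 base pairs on small scaffolds lay inside listed genes of the same name. For 5mC the names matched less well. On 23 small scaffolds with at least 20 kb of 5mC, the positions were compared with H3K27me1 on every small scaffold, in steps of 150 bp. The best match had the same number on 4 of them (scaffolds 9, 10, 11 and 24) and a higher number on the other 19. The main scaffolds were compared among themselves alone, a far smaller set of candidates, and there the best match had the same number in 8 of 8.

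**Figure D1:**
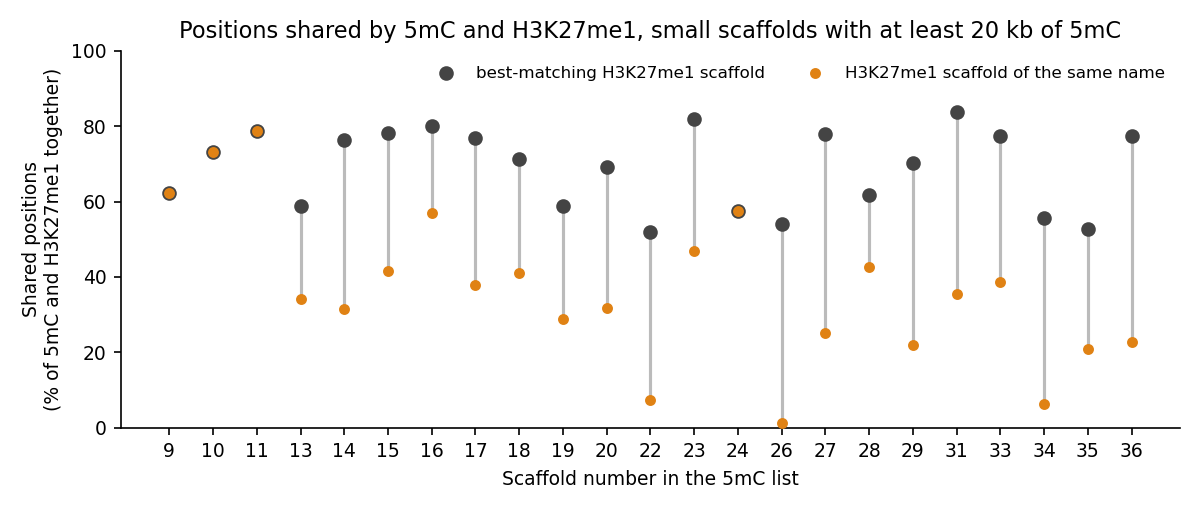
Share of positions held in common by 5mC and H3K27me1 (vertical axis, in percent of the positions under either mark) for the 23 small scaffolds with at least 20 kb of 5mC (horizontal axis, number in the 5mC list). Orange points stand for the H3K27me1 scaffold of the same name and dark points for the best-matching one; the points coincide on scaffolds 9, 10, 11 and 24, and the medians are 35.5% and 71.2%.

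Single scaffolds show the size of the mismatch. The 5mC domains named for scaffold 14 lay 99.6% under the H3K27me1 domains of scaffold 15, which covered 74.3% of that scaffold. They lay 55.5% under the H3K27me1 domains of scaffold 14, which covered 56.0% of it. The last position of these 5mC domains was 269850, beside 269700 for H3K27me1 on scaffold 15 and 361200 on scaffold 14. Among small scaffolds, the 5mC domain with the highest score per bp (10.8) spanned positions 161701-163800 of scaffold 17, and the H3K27me1 domain with the highest score per bp spanned 161701-163500 of scaffold 18. By name, 13.8% of the H3K4me3 base pairs on small scaffolds lay under 5mC, against 2.25% on the main scaffolds and 5.27% on scaffold 9. How much of this difference comes from the names was not tested. The files do not say which numbering each list used. Joint values of 5mC with another mark or with genes are therefore given by name for all small scaffolds and again for scaffolds 9 to 11, the first 3 in number and the longest, where the names matched. No list was renumbered, since a best match is chosen by the overlap itself. The match on scaffolds 9 to 11 was judged by the same overlap. Joint values of 5mC and H3K27me1 there are therefore not independent of it. The last positions of 5mC and H3K27me1 were also close there. They were 1906650 and 1906500 on scaffold 9, 461850 and 461700 on scaffold 10, and 440550 and 440400 on scaffold 11. The histone marks and genes were also described on the extents that those lists alone give, which came to 607 scaffolds and 11.2 Mb, a basis chosen after the data were seen.

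Small scaffolds carried more H3K27me1 and less H3K4me3 than any main scaffold. H3K27me1 domains covered 39.0% of the small-scaffold extent and 15.7% of the main-scaffold extent, where single scaffolds ran from 14.0% to 17.2%. H3K4me3 domains covered 2.99% of the small and 9.02% of the main extent (7.89% to 9.75%). H3K27me3 domains covered 9.06% and 13.2% (11.4% to 15.2%). Listed genes spanned 13.2% and 32.6% (29.7% to 35.4%). In all 3 histone marks and in genes, the value over all small scaffolds together thus lay outside the range of the 8 main scaffolds. For H3K27me3 this did not hold in every size class, as given below. With 5.52% of the extent, the small scaffolds held 12.7% of all H3K27me1 base pairs, 3.87% of those of H3K27me3, 1.90% of those of H3K4me3 and 2.31% of those in genes.

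The main scaffolds each have a longest stretch without any domain or gene, and the sequence within 1 Mb of those stretches (16.0 Mb in all) came close to the small scaffolds. H3K27me1 covered 40.5% there, H3K27me3 9.11% and H3K4me3 3.16%, with 14.9% in listed genes. Against this reference the higher H3K27me1 share of the small scaffolds was no longer seen.

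Taken by their combinations on the histone and gene basis, 36.3% of the small-scaffold extent carried H3K27me1 alone and 5.72% H3K27me3 alone, against 13.4% and 10.4% on the main scaffolds. H3K4me3 alone made up 2.80% of the small and 8.27% of the main extent. The pair of H3K27me3 with H3K27me1 made up 3.30% and 2.09%. No histone domain lay on 51.6% of the small and 65.0% of the main extent. H3K4me3 met another histone mark on little sequence, 0.169% of the small extent with H3K27me3 and 0.0444% with H3K27me1.

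**Figure D2:**
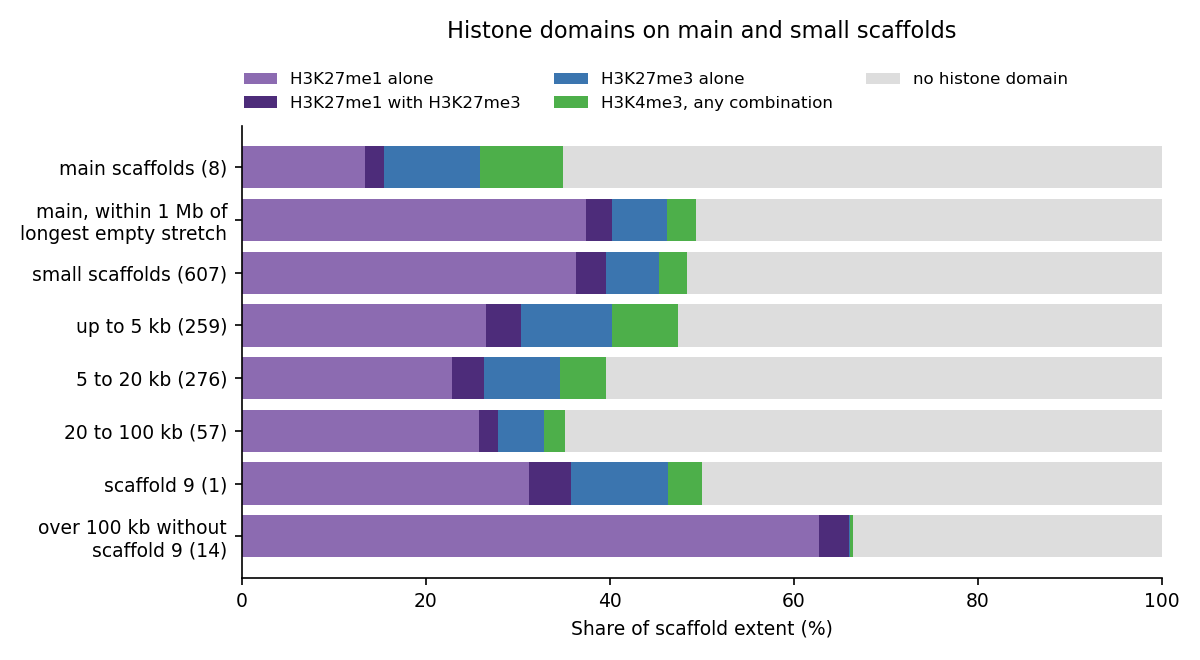
Share of scaffold extent (horizontal axis, percent) under each combination of H3K4me3, H3K27me3 and H3K27me1 for the main scaffolds, for the parts of them within 1 Mb of their longest empty stretch, and for all small scaffolds and their size classes, with the number of scaffolds in parentheses. H3K27me1 alone takes 62.7% of the 14 small scaffolds over 100 kb other than scaffold 9, the largest share among the bars, and H3K4me3 is nearly absent from them.

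The small scaffolds differed among themselves by size. On the histone and gene basis their median extent was 5959 bp, with the lower and upper quartiles at 3787 and 11131 bp. The 259 scaffolds up to 5 kb held 7.53% of the small extent, the 276 of 5 to 20 kb 23.9%, the 57 of 20 to 100 kb 23.7% and the 15 over 100 kb 44.8%. H3K27me1 covered 30.6%, 26.5%, 27.8% and 54.6% of these classes in that order. Its share was thus similar in the first 3 classes and higher over 100 kb. H3K4me3 covered less in each longer class, with 7.12%, 5.08%, 2.35% and 1.63%, and listed genes covered 26.5%, 22.7%, 12.2% and 6.91%. H3K27me3 covered 14.0%, 12.1%, 7.15% and 7.96%, of which the first 2 lay within the range of the main scaffolds. Over 100 kb it covered 15.3% of scaffold 9, above every main scaffold, and 3.41% of the 14 others. Because extent ends at the last domain or gene, the shares of the shortest scaffolds are raised by construction. Over scaffolds up to 100 kb together, H3K27me1 covered 27.6% and H3K4me3 4.19%, which still lay outside the range of the main scaffolds.

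Among the scaffolds that the histone and gene lists name, gene-bearing and gene-free ones were about equal in number. A scaffold without a listed gene entered only through a histone domain, and one with neither cannot be seen, so this split need not hold for all small scaffolds. Of the 607 scaffolds, 307 held a listed gene and 300 (49.4%) held none. An H3K27me1 domain was present on 348 and was the sole histone mark on 138. An H3K4me3 domain was present on 265, of which 225 also held a listed gene. On 233 scaffolds H3K27me1 stood with no listed gene. Another 32 scaffolds carried no histone domain and were named through a listed gene alone. At least 50% of the extent was under H3K27me1 on 170 scaffolds (28.0%), under H3K27me3 on 47 and under H3K4me3 on 12. When the main scaffolds were divided into windows of the same lengths, 14.3% of windows with any feature were at least 50% under H3K27me1.

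Long small scaffolds were either rich in H3K27me1 and without listed genes, or held genes and less H3K27me1. Among the 15 over 100 kb, 12 held no listed gene, and these 12 were covered by H3K27me1 over 45.2% to 99.6% of their extent. The other 3 were scaffold 9 with 109 genes, scaffold 20 with 5 and scaffold 26 with 3, and H3K27me1 covered 35.9%, 23.1% and 9.71% of them. In all, 11 of the 15 were at least 50% under H3K27me1, whereas 2.80% of main-scaffold windows of those lengths were. Of the 5 longest, scaffold 9 (1906.5 kb on the histone and gene basis) is described separately below. Scaffold 10 (461.7 kb) carried 78.6% H3K27me1, 3.96% H3K27me3 and 0.0975% H3K4me3. Scaffold 11 (440.4 kb) carried 73.2%, 1.63% and none in the same order. Scaffold 14 (361.2 kb) carried 56.0% H3K27me1 and neither of the other histone marks. Scaffold 13 (274.2 kb) carried 77.5%, 8.10% and 0.164%. None of the last 4 held a listed gene, and H3K27me1 was the prevailing mark on each.

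**Figure D3:**
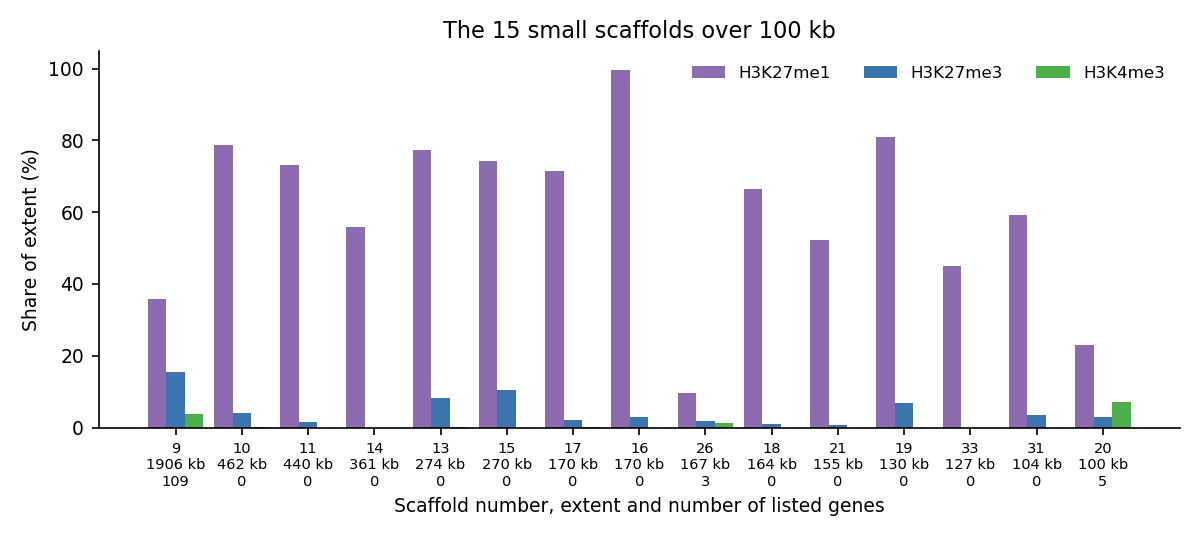
Share of extent (vertical axis, percent) under H3K27me1, H3K27me3 and H3K4me3 on each of the 15 small scaffolds over 100 kb, ordered by extent. The labels under the bars give scaffold number, extent and number of listed genes; the 3 scaffolds with listed genes (9, 26 and 20) have H3K27me1 shares of 35.9%, 9.71% and 23.1%, below the 12 others.

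H3K27me3, the Polycomb mark, lay almost wholly within H3K27me1 domains on the 14 scaffolds over 100 kb other than scaffold 9. There H3K27me1 domains held 97.2% of the H3K27me3 base pairs and covered 66.1% of the extent. In the other sets the share of H3K27me3 under H3K27me1 was near the share of extent that H3K27me1 covered. The former was 29.7% and the latter 35.9% on scaffold 9, 28.7% and 27.6% on scaffolds up to 100 kb, and 16.3% and 15.7% on the main scaffolds. Within 1 Mb of the main scaffolds' empty stretches they were 32.2% and 40.5%. H3K27me3 was also the scarcer of the pair on the 14 scaffolds, with H3K27me1 covering 19.4 times as many base pairs, against 1.19 times on the main scaffolds. The H3K27me3 domain with the highest score per bp on a small scaffold, at positions 181201-183300 of scaffold 11 (2.47 per bp, 3.30 times the median of its list), lay where H3K27me1 and 5mC also had domains.

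Large H3K27me1 domains set the longer small scaffolds, other than scaffold 9, apart more than the typical domain did over all small scaffolds. The median H3K27me1 domain was 1200 bp wide on small and on main scaffolds. Domains wider than 5 kb, however, held 58.1% of the H3K27me1 length on small scaffolds and 26.8% on the main ones. On the 14 scaffolds over 100 kb without scaffold 9 the median width was 4200 bp, and wide domains held 87.0% of the length. On scaffold 9 they held 28.7%, close to the main scaffolds. Wide domains held 25.6% of the length on scaffolds of 5 to 20 kb and 56.8% on those of 20 to 100 kb. Scaffolds up to 5 kb are too short to hold one. Widths and scores are not given here for the sequence near the main scaffolds' empty stretches. The widest on a small scaffold, 94.5 kb at positions 10801-105300 of scaffold 16, had a score of 0.581 per bp, 2.74 times the median of the H3K27me1 list.

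The score per bp of H3K27me1 domains likewise differed little at the median. Each deposited domain has a whole-number score whose meaning is not given in the sources used here, and it was divided by the domain's width. The median was 0.222 per bp on small scaffolds and 0.211 on the main scaffolds, whose own medians ran from 0.208 to 0.214. The upper part of the distribution was farther apart. More than 2 times the list median was reached by 268 of 1380 small-scaffold domains (19.4%), beside 2.80% of the whole list and 1.39% of main-scaffold domains. Scaffold 9 had 2.07% of such domains, and the 14 others over 100 kb had 71.2%, with a median of 0.598 per bp. Summed score over summed width came to 0.608 on small and 0.275 on main scaffolds.

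**Figure D4:**
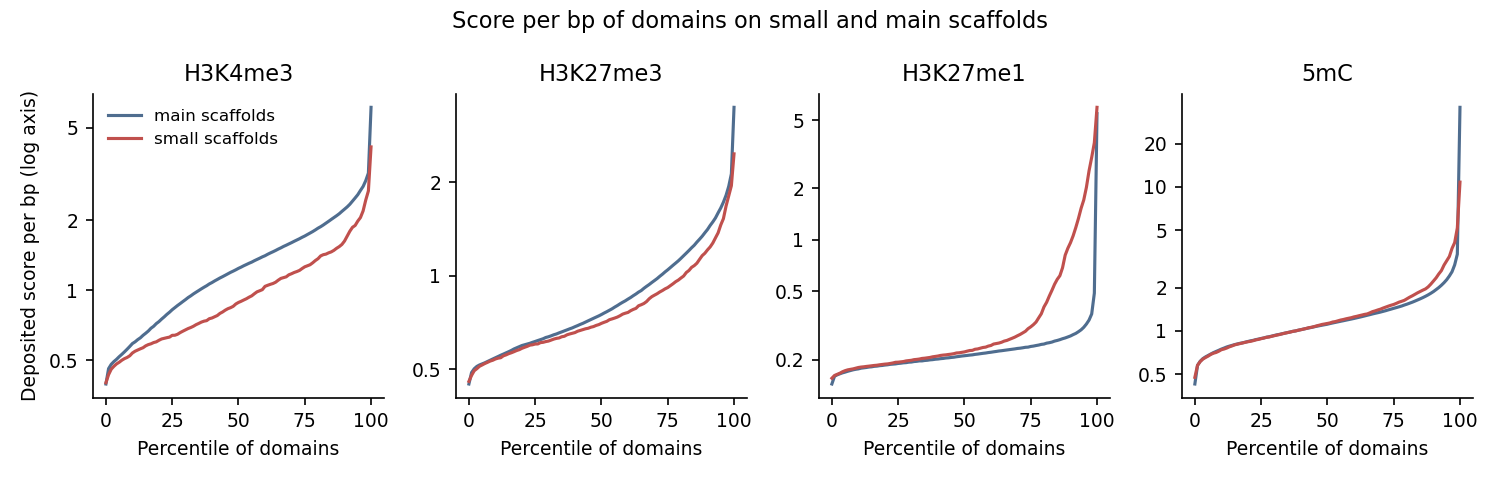
Deposited score per bp (vertical axes, log scale, a separate axis for each mark) at each percentile of domains (horizontal axes) on the small and the main scaffolds. For H3K27me1 the curves lie close up to the median (0.222 and 0.211) and part above it; for H3K4me3 the small-scaffold curve lies below the main one, with medians of 0.887 and 1.24.

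Above 10 times the list median, H3K27me1 had 72 domains (0.407% of its list), and 51 of them were on small scaffolds. That is 3.70% of the small-scaffold domains and 0.129% of those on the main scaffolds. The 51 domains lay on 28 small scaffolds, 16 of which held a single one. Scaffold 14 held 6, scaffolds 28 and 33 held 5 each and scaffold 35 held 3. The median width of the 51 was 1800 bp and together they spanned 115.8 kb. By length the main scaffolds held more, since their 21 such domains spanned 192 kb, with 136200 bp in the widest. Of the list's summed score, those 21 held 7.03% and the 51 held 3.45%. None of the 51 touched an H3K4me3 domain, an H3K27me3 domain or a listed gene. Of the 1380 small-scaffold H3K27me1 domains, 285 (20.7%) touched H3K27me3 and 77 (5.58%) a gene. At the latter rate few of 51 domains would touch a gene. The 21 such domains on the main scaffolds likewise touched no H3K4me3 or H3K27me3 domain, and 3 of them touched a gene. Within 300 bp of a scaffold's start or extent end lay 29 of the 51, against 23.9% of all small-scaffold H3K27me1 domains. Because extent ends at the last domain or gene, some domains lie at an end by construction. The part that position at an end plays in the score was not tested. Without domains at an end, the median score per bp on small scaffolds was 0.218. By class, 16 of the 51 were on scaffolds up to 5 kb, 5 on those of 5 to 20 kb, and 15 each on those of 20 to 100 kb and over 100 kb. The domain with the highest score per bp, at positions 161701-163500 of scaffold 18, reached 5.95 per bp, 28.1 times the list median.

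H3K4me3 domains on small scaffolds were narrower and scored lower. Their median width was 600 bp against 750 bp on every main scaffold, and their median score was 0.887 per bp against 1.24 (1.19 to 1.30). More than 2 times the list median was reached by 2.03% of them, beside 6.32% of the whole list. Within the top 50% of the list by score, the median width was 900 bp on small and on main scaffolds. Among all domains, 78.9% touched a listed gene on small scaffolds and 92.1% on the main ones. On scaffold 9 the width was 750 bp and the score 1.06 per bp, between the other small scaffolds (600 bp and 0.851) and the main ones. The widest, 2550 bp at positions 206851-209400 of scaffold 9, and the one with the highest score per bp, 4.15 at positions 1-750 of the same scaffold, each touched a listed gene. H3K27me3 domains had a median width of 900 bp in both sets. Over all small scaffolds their median score was 0.703 per bp against 0.751 (0.738 to 0.767). Of them, 4.27% exceeded 2 times the list median, beside 7.72% of the whole list. The lower scores did not hold on the 14 scaffolds over 100 kb other than scaffold 9. There 11 of 61 H3K27me3 domains exceeded 2 times the list median, against 1435 of 18216 on the main scaffolds. Their median was 0.754 per bp and their median width 1200 bp. Summed score over summed width was 1.14 there and 1.03 on the main scaffolds. The widest H3K27me3 domain on a small scaffold covered 17.1 kb at positions 108601-125700 of scaffold 9.

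The 5mC list was described alone, on the extents that it gives itself. On 345 small scaffolds it reached 7.95 Mb, of which 5mC domains covered 47.6%, against 20.9% on the main scaffolds (19.3% to 22.5%) and 47.2% within 1 Mb of their empty stretches. Extents that end at the last 5mC domain, on scaffolds that hold one, raise the small-scaffold share by construction. The sequence near the empty stretches was not cut in this way. Over the union of all extents, by name, the share was 33.4%, because scaffolds with no 5mC domain and sequence past the last one then count as well. This value lies below that near the empty stretches. For scaffolds up to 100 kb the by-name share was 23.6%. On the 5mC list's own extents the share was 45.3% on scaffolds up to 5 kb, 44.8% at 5 to 20 kb, 42.5% at 20 to 100 kb and 51.5% over 100 kb. Scaffold 9 alone had 44.7%. The median 5mC domain was 900 bp wide on small and 600 bp on each main scaffold. Score per bp hardly differed at the median, 1.13 and 1.11 (1.07 to 1.14), but 9.89% of small-scaffold domains exceeded 2 times the list median, beside 5.65% of the whole list. The widest 5mC domain on a small scaffold, 32.6 kb at positions 1078651-1111200 of scaffold 9, touched no listed gene.

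By name, H3K27me1 and 5mC lay together on 18.9% of the small-scaffold extent and 13.0% of the main extent (11.4% to 14.4%). The higher share rests on scaffolds 9 to 11, where the names matched and it was 39.8%. Since that match was judged by the overlap of these marks, a high joint share there is partly built in. By name it was 12.1% on the other small scaffolds and 6.91% on scaffolds up to 100 kb, both below the main scaffolds, and 34.1% on main-scaffold sequence within 1 Mb of the empty stretches. Of the H3K27me1 base pairs, 86.1% lay under 5mC on scaffold 9, 73.7% on scaffold 10 and 80.5% on scaffold 11, against 82.7% on the main scaffolds (81.2% to 83.7%). By name over all small scaffolds the value was 48.5%. Conversely 69.2% of the 5mC base pairs of scaffold 9 lay under H3K27me1, against 99.1% on scaffold 10, 97.2% on scaffold 11 and 57.4% to 63.7% on the main scaffolds. On the gene-free scaffolds 10 and 11 the 5mC domains thus lay almost wholly inside H3K27me1, while on scaffold 9 the nesting was nearer to that of the main scaffolds. No domain of any mark lay on 33.3% of scaffolds 9 to 11, 39.4% of all small scaffolds by name and 58.3% of the main scaffolds.

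Scaffolds mostly under H3K27me1 and 5mC, meaning at least 50% of the extent under each, numbered 17 of 622 by name and added up to 1.34 Mb (11.8% of the small extent). The 5 longest made up 92.6% of that length. Scaffold 10 had 78.6% H3K27me1 and 58.5% 5mC, and scaffold 11 had 73.2% and 60.6%. On these 2 scaffolds the names matched, and the marks lay together on 57.9% and 58.9% of the extent. Scaffold 16 followed with 99.6% and 57.3%, scaffold 23 with 76.7% and 62.5%, and scaffold 24 with 98.3% and 57.9%. The 5mC values of scaffolds 16 and 23 matched another H3K27me1 scaffold better than their own. Scaffold 24 matched itself, but the 5mC of scaffold 23 matched it more closely still (82.0% of positions, against 57.5%). Of the 17 scaffolds, 12 were shorter than 15 kb, 13 carried no H3K4me3 domain and 2 held 1 listed gene each. Main-scaffold windows of the same lengths as the 622 small scaffolds were mostly under both marks in 12.9% of cases, a share that the by-name 17 does not reach, while windows as long as the scaffolds over 100 kb were so in 2.69%, against 3 of 15. How far the names lower the count of 17 was not tested.

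Scaffold 9 held most of the genes found on small scaffolds over 100 kb and less H3K27me1 than the gene-free ones. It had 109 of the 653 genes (16.7%), or 57.2 per Mb, against 121.6 per Mb on the main scaffolds. In 19 windows of 100 kb, H3K27me1 covered from 14.7% to 65.5% and 5mC from 11.6% to 65.1%, and every window held 1 to 16 genes. The window at positions 1600001-1700000 had the most genes, 16, and the lowest shares of both marks, but 4 of the 16 genes carried H3K4me3 and their median coverage was 2.79. The window at 1800001-1900000 had the highest H3K27me1 share, and both of its 2 genes carried H3K4me3. H3K27me3 was uneven along the scaffold, with 38.2% at 600001-700000 and at most 0.6% in the 3 windows from 1600001 to 1900000.

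Over all sizes, genes on small scaffolds were fewer per Mb and shorter than on the main scaffolds, and H3K4me3 marked a lower share of them. There were 58.5 listed genes per Mb of small extent, and 109.5 to 129.6 on single main scaffolds, but 46.7 within 1 Mb of the main scaffolds' empty stretches. The density differed by size, from 164.2 per Mb on scaffolds up to 5 kb, above every main scaffold, to 23.4 per Mb over 100 kb, and the lower bound on extent raises it most on the shortest. The median span was 1744 bp on small and 2246 bp on main scaffolds (2187 to 2303.5 bp on single ones). On scaffold 9 it was 2185 bp, close to that range. Of 307 scaffolds with a gene, 168 held a single one. To within 300 bp of a scaffold's start or extent end reached 310 of the 653 genes (47.5%), against 3 on the main scaffolds. Extent ends at the last domain or gene, so every small scaffold has such a feature at its end by construction. The median span of these 310 genes was 1525.5 bp, and that of the 343 away from the ends was 1960 bp. A mark was assigned to a gene if it overlapped the span by 200 bp or more, or filled a span shorter than that. The intervals that follow are exact binomial 95% intervals and cover counting error only.

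H3K4me3 marked 391 of the 653 genes, 59.9% (56.0% to 63.7%), beside 78.7% of all listed genes and 76.8% to 80.7% on single main scaffolds. H3K27me3 marked 100 genes, 15.3% (12.6% to 18.3%), beside 17.2% of all, and H3K27me1 marked 50, 7.66% (5.74% to 9.97%), beside 7.97%. Both of the latter shares are near the background. None of the 3 histone marks lay on 175 genes, 26.8% (23.4% to 30.4%), beside 9.38% of all. The lower H3K4me3 share appeared in each length class. It was 47.2% against 57.6% for genes up to 1 kb, 65.4% against 78.3% at 1 to 2 kb, 64.5% against 84.8% at 2 to 4 kb and 55.0% against 81.5% above 4 kb. It also remained for the 343 genes away from scaffold ends, at 62.7% (57.3% to 67.8%). On scaffold 9 it was 65.1% (55.4% to 74.0%), and among the 747 genes within 1 Mb of the main scaffolds' empty stretches 68.9% (65.5% to 72.2%). Across the size classes it went from 55.8% up to 5 kb to 66.7% over 100 kb, with overlapping intervals. When at least 50% of the span had to be under the mark, the share was 20.7% against 23.7% on the main scaffolds, a smaller gap.

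By name, 5mC lay on 179 genes, 27.4% (24.0% to 31.0%), beside 11% of all listed genes. Where the names matched, on scaffold 9, it lay on 24 of 109, 22.0% (14.6% to 31.0%), against 10.1% to 11.3% on single main scaffolds. Within 1 Mb of the main scaffolds' empty stretches 22.4% of genes carried it. H3K27me1 lay on 16 of the 109 genes of scaffold 9, 14.7% (8.63% to 22.7%), and on 18.3% of those near the empty stretches.

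The mRNA coverage of small-scaffold genes was lower. The median was 4.34 over the 653 genes, with quartiles at 1.90 and 9.95, and 7.13 on the main scaffolds (6.56 to 7.83 on single ones). The lowest value in the table is exactly 1, at which 79 of the 653 genes were listed (12.1%, interval 9.70% to 14.8%), beside 8.23% of all listed genes. Whole leaves were sequenced in bulk, so fewer cells with a transcript and less transcript per cell cannot be told apart.

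Genes with H3K4me3 had the highest coverage on small scaffolds as well. The 342 genes with H3K4me3 as their sole histone mark had a median of 6.24 (quartiles 3.44 and 14.4), against 10.3 on the main scaffolds (9.75 to 10.7). Those on scaffold 9, 60 in number, had 8.72. The 38 genes with H3K4me3 and H3K27me3 had 4.44, beside 4.02 on the main scaffolds, and the 10 with H3K4me3 and H3K27me1 had 5.51, beside 2.82. A single gene, listed at exactly 1, carried all 3 histone marks. The 48 genes with H3K27me3 alone had 1.52, the 26 with H3K27me1 alone 1.33 and the 13 with both of these 1.00, of which 8 were listed at exactly 1. The main-scaffold medians were 1.32, 1.37 and 1.14, within the quartiles of the small groups.

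Genes without a histone mark departed from this picture, with a median of 2.97 for 175 genes against 1.98 on the main scaffolds (1.87 to 2.07). Of these, the 72 away from scaffold ends had 1.97 and the 20 on scaffold 9 had 1.72. The 103 at scaffold ends had 4.16. This split is partly fixed by construction, since extent ends at the last domain or gene. Each of the 32 scaffolds without a histone domain must have an unmarked gene at its extent end. The part of scaffold ends in the marks and coverage of these genes was not tested.

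**Figure D5:**
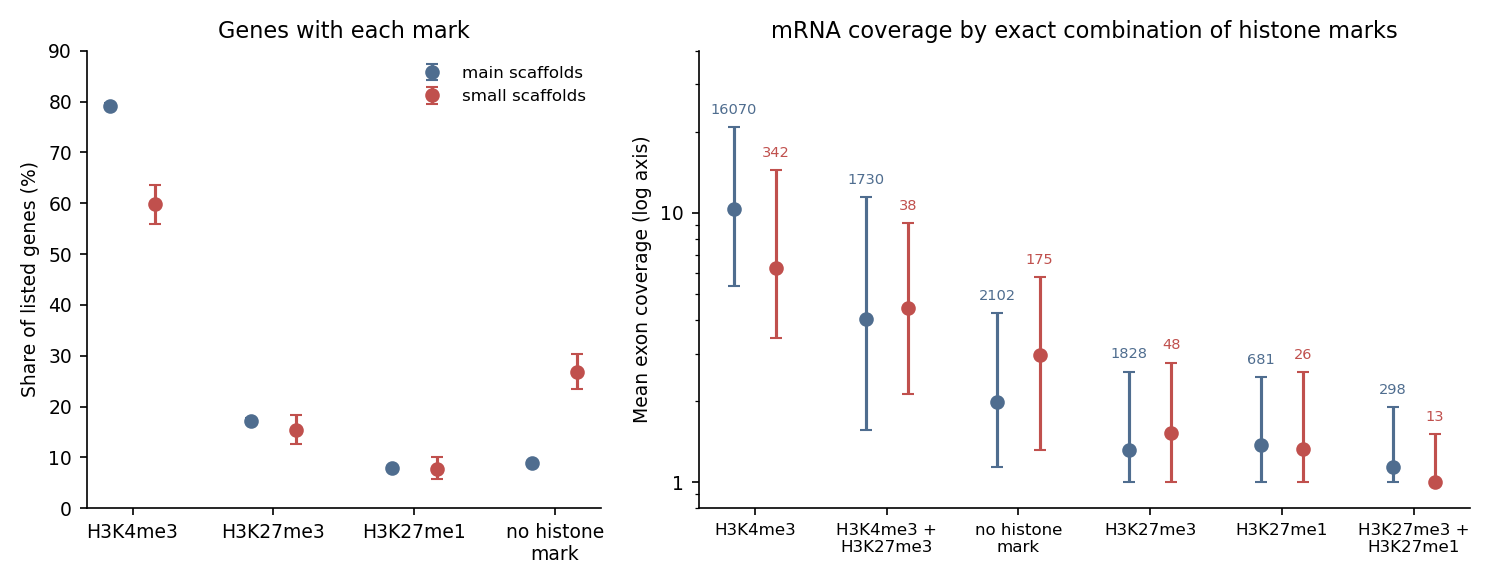
Left, share of listed genes with each histone mark or none (vertical axis, percent; points with exact binomial 95% intervals), on the 8 main and the small scaffolds. Right, mean exon coverage (log axis) by exact combination of histone marks, with the median as a point, bars from the lower to the upper quartile over genes, and the number of genes above each bar; H3K4me3 genes have a median of 6.24 on small and 10.3 on main scaffolds, and unmarked genes 2.97 and 1.98.

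The highest coverage on a small scaffold belonged to AL9U11520 at positions 1438720-1439946 of scaffold 9, with 3140 and H3K4me3 over its whole span. Next came AL249U10020 at positions 1997-4511 of scaffold 249, with 691 and H3K4me3 over 71.6% of its span. On the 17 scaffolds mostly under H3K27me1 and 5mC by name, 2 genes were listed. AL322U10010 (positions 6497-7758 of scaffold 322) had a coverage of 3.25, with H3K27me3 over 91.8% and H3K4me3 over 20.4% of its span. AL281U10020 (positions 7726-9289 of scaffold 281) was listed at exactly 1 and carried no histone mark. The files pair none of these identifiers with a gene name.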

How the data were processed

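Libraries were grouped by the sample titles. Per the submitters' processing notes, Bowtie and SICER were used; the sources used here give no version, setting or genome build, nor whether replicates were pooled. The authors deposited 1 domain list per mark with a whole-number score, and 1 table of mean exon coverage (unit: signal) per gene, with no stated normalization. Sequencing depth is unknown. Domain edges fell on steps of 150 bp (H3K4me3, 5mC) or 300 bp (H3K27me3, H3K27me1), which limits the precision of widths.

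From these files, base pairs under each mark, widths, score per bp, genes with a mark and medians of coverage were computed in Python 3.11.15 with pandas 2.3.3 and scipy 1.17.1. The interval arithmetic was tested on simulated data. Positions count from 1. Named items are the 5 longest small scaffolds, the 5 longest mostly covered ones, the widest domain and that with the highest score per bp of each mark, and the 2 genes of highest coverage on small and on mostly covered scaffolds. Scaffolds, domains and rules were chosen with earlier results of these data known. None of the identifiers (0 of 24268) was found in the RefSeq gene table of assembly v.1.0, which holds 34365 genes, so no gene names are given, and no sequence is printed. Alternatives changed the extent, the scaffolds or domains used, the rule for a marked gene and the main-scaffold reference. Input libraries were not analysed here.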

Additional observations from a re-analysis of the deposited data

How the results depend on the processing

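No paired analysis was possible because each mark has 1 deposited list and no value per replicate. Values below are those on small scaffolds unless said otherwise. Of 124 alternative values, 43 moved by less than the spread over main scaffolds (or the grid step of a width, or the interval of a gene share). Another 69 moved by more, towards or away from the main-scaffold value, without turning the direction of the difference. The direction turned in 12. Counts of scaffolds mostly under both marks have no main-scaffold value and were judged by their ratio to the first count alone. The cause of the moves was not tested.

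Extent shares, in the order H3K4me3, H3K27me3, H3K27me1, 5mC and H3K27me1 with 5mC, were 1.88%, 7.67%, 45.2%, 39.3% and 25.6% on scaffolds of at least 20 kb, and 1.14%, 6.26%, 35.1%, 30.4% and 16.5% with the top 50% of domains by score. Measured from the first coordinate, H3K27me1 and 5mC covered 40.6% and 34.7%. Without the longest small scaffold, 5mC covered 31.1% and the pair 16.5%. On scaffolds 9 to 11 alone, added after the data were seen, H3K27me3, H3K27me1, 5mC and the pair covered 11.3%, 48.8%, 49.4% and 39.8%. On scaffolds up to 100 kb, also added, H3K4me3, H3K27me1 and 5mC covered 4.06%, 26.8% and 23.6%, and the pair covered 6.91%, below the main scaffolds' 13.0%. On its own extents 5mC covered 47.6%. Without their longest empty stretch the main scaffolds had 9.91% H3K4me3, 17.2% H3K27me1, 23.0% 5mC and 14.2% of the pair. Within 1 Mb of it they had 3.16% H3K4me3 and 9.11% H3K27me3, and 40.5% H3K27me1, 47.2% 5mC and 34.1% of the pair, all 3 above the small scaffolds.

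With the top 50% of domains the median widths were 900 bp (H3K4me3), 1500 bp (H3K27me3), 2400 bp (H3K27me1) and 1650 bp (5mC). The main scaffolds then had 900, 1800, 2100 and 1350 bp, so that H3K4me3 widths no longer differed at the median. Summed score over summed width was 1.14, 0.930, 0.608 and 1.58 in that order, and the median score per bp on scaffolds of at least 20 kb was 0.977, 0.730, 0.227 and 1.18. Without domains at scaffold ends it was 0.684 for H3K27me3 and 0.218 for H3K27me1.

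The share of genes with H3K4me3 was 20.7% with 50% of the span under the mark, 18.5% with the top 50% of domains, 63.9% on scaffolds of at least 20 kb and 65.1% on scaffold 9. For H3K27me3 it was 7.66% and 8.27% under the first 2 settings, and 18.3% at 20 kb or more and 18.1% away from scaffold ends, both above the main scaffolds' 17.2%. For H3K27me1 it was 3.06% and 3.68%, and 11.2% at 20 kb or more, 14.7% on scaffold 9 and 9.04% away from ends, all above 7.98%. For 5mC it was 13.0% and 21.7%, 31.7% with any overlap, 22.0% on scaffold 9 and 34.7% away from ends.

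Median coverage without genes at exactly 1 was 5.11 over all genes, 3.25 with H3K27me3, 2.24 with H3K27me1 and 4.68 with 5mC. Away from scaffold ends it was 3.94 over all, 6.38 with H3K4me3, 1.26 with H3K27me1, and 1.76 with H3K27me3, which turned below the main scaffolds' 1.87. With 50% of the span under the mark it was 8.70 for H3K4me3, 1.22 for H3K27me1, 1.67 for H3K27me3 (below the main 1.70) and 2.89 for 5mC (above the main 1.67). Without the longest small scaffold it was 1.26 with H3K27me1.

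Scaffolds mostly under H3K27me1 and 5mC numbered 0 at 75% of the extent, 10 with both marks at once over 50%, 5 at 20 kb or more and 2 among scaffolds 9 to 11.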
